A study of Mus musculus with 9 samples.

Results

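The 34 genes described here make up the endoplasmic reticulum (ER) stress and folding group: chaperones and enzymes that fold secreted and membrane proteins, the sensors and transcription factors of the unfolded protein response, and the machinery that admits proteins to the ER or removes misfolded ones from it. They were picked by gene symbol, and every probe set that the platform annotation assigned to one of these symbols was taken, which gave 74 of the 22690 probe sets on the array. A probe set is a group of short probes whose summarised brightness reports 1 transcript. The samples were lungs of FVB/N mice, measured on Affymetrix mouse 430A arrays, 3 per genotype. HO lungs carried 2 alleles of SP-C-hCFTR, a transgene in which the promoter of Sftpc, the surfactant protein C gene, drives human CFTR cDNA, and HE lungs carried 1 allele. WT lungs carried none, and all groups kept both mouse Cftr alleles as far as their labels say (mCftr+/+). For WT replicate 3 the labels give the strain and WT but no mCftr entry. The mice were adult. The title and genotype entry of HO replicate 2 give 2 alleles, while its description calls it homozygous and writes the symbol of 1 allele. Since the promoter is active in lung epithelium and the RNA was that of lung tissue, cells without the transgene product contributed to every value. The labels do not say whether the 3 samples of a group came from separate mice, so the tests measure the spread between samples, which may be technical.

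Proteins destined for secretion or for a membrane enter the ER through a channel and are folded there by chaperones such as Hspa5 (BiP), by the lectins calnexin and calreticulin, and by disulfide isomerases. When unfolded protein accumulates, the sensors Ern1 (IRE1), Eif2ak3 (PERK) and Atf6 raise chaperone production, slow translation and increase the removal of misfolded protein through retrotranslocation and the proteasome. CFTR is a membrane glycoprotein known for inefficient folding in the ER, and alveolar type II cells, which secrete surfactant proteins, are a lung cell type with an extensive ER. The comparisons ask whether lung RNA of these genes differed with 2 or 1 alleles of the transgene.

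Many genes of the unfolded protein response share short promoter elements, and these are shown because several members hold them while few other genes do. The ER stress response element (ERSE) has the letters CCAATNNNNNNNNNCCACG and is read by NF-Y together with Atf6 or Xbp1. In RefSeq promoters of build GRCm38.p6, each 250 bases before to 50 bases after a gene's start, it was searched on both strands. It was present in 39 of 32851 promoters (0.119%), and in 8 of the 30 members that have a promoter in that table (26.7%). The 9 matches follow 5′ to 3′ on the strand that carries the motif, with 10 bases on either side and the fixed letters of the motif in capitals. They include a pair of matches in Hsp90b1.
Hspa5 (chr2:34772015-34772053, plus strand): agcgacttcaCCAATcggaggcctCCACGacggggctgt
Hsp90b1 (chr10:86705628-86705666, minus strand): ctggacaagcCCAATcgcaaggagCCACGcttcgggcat
Hsp90b1 (chr10:86705523-86705561, plus strand): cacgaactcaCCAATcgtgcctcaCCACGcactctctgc
Calr (chr8:84847065-84847103, plus strand): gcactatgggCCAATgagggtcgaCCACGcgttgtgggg
Canx (chr11:50325790-50325828, minus strand): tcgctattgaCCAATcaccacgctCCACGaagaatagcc
Pdia6 (chr12:17266481-17266519, plus strand): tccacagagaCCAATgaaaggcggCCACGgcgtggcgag
Dnajc3 (chr14:118937817-118937855, plus strand): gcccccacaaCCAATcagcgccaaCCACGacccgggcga
Syvn1 (chr19:6046522-6046560, plus strand): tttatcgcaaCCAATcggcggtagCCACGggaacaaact
Creld2 (chr15:88819510-88819548, minus strand): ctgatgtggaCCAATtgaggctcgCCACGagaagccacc

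Counted from the gene start at 0, the first base of these matches lay at positions -212 to -44. A shorter form, ERSE-II (ATTGGNCCACG), was found in 12 promoters of the table (0.0365%) and in 2 members (6.67%), Dnajb11 and Herpud1, with the same use of capitals.
Dnajb11 (chr16:22857842-22857872, plus strand): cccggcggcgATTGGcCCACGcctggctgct
Herpud1 (chr8:94386367-94386397, plus strand): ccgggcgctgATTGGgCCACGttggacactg

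The core of the unfolded protein response element, TGACGTG, occurred in 2.01% of the promoters and in 2 members, Hspa5 and Vcp. The composite element TGATGNAA, which Atf4 and Ddit3 bind as partners of C/EBP proteins, occurred in 3.97% of the promoters and in 3 members, Herpud1, Trib3 and Asns. No pair of matches overlapped. A match describes letters in this window and does not show binding. The Hspa5 promoter (chr2:34771840-34772139, plus strand), shown because Hspa5 is the usual readout of the response, held both the TGACGTG core and the ERSE, in capitals in that order.
Hspa5 promoter: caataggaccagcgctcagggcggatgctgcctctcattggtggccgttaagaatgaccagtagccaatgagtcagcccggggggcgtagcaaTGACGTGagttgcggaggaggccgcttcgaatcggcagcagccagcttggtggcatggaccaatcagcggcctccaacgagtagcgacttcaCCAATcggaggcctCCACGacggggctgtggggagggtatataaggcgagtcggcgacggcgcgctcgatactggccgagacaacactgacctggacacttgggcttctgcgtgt

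**Figure D1:**
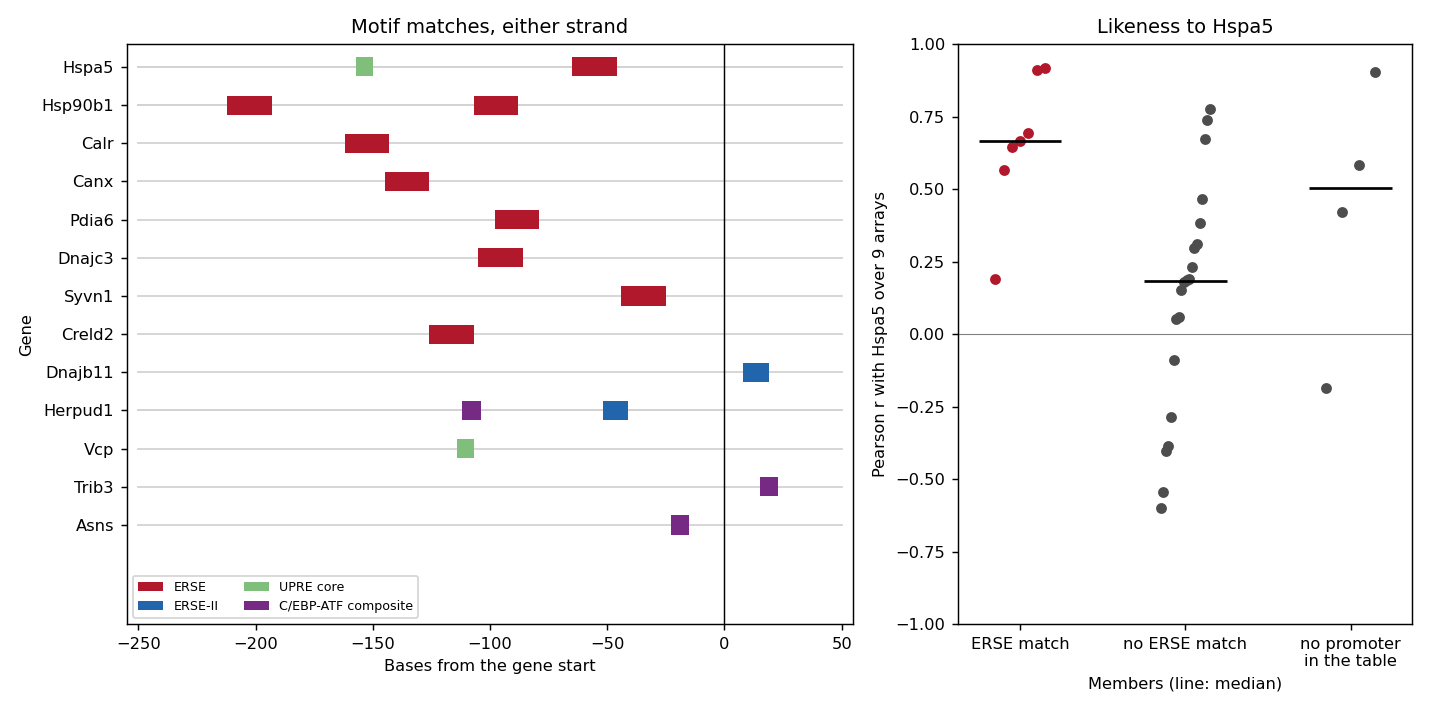
Left, positions of the 4 promoter motifs in the members that hold a match, in bases from the gene start at 0; right, Pearson r with Hspa5 over the 9 arrays for members with an ERSE match, members with none and members whose promoter is absent from the table, each point 1 gene and the line a median. The 7 points with an ERSE have a median of 0.67 and the 20 without have a median of 0.18. These values were 0.55 and 0.26 without HO replicate 2 and WT replicate 1. Each gene is taken at its probe set of highest mean signal, which other probe sets of Calr, Canx and Pdia6 did not follow.

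No member differed between genotypes after correction for the number of probe sets tested. Of the 74 member probe sets, 64 from 32 genes passed the filter on dim values and entered the fit of 13576 probe sets, and the 3 probe sets of Ern1 and the 2 of Trib3, a pseudokinase induced by Atf4 and Ddit3, all fell below it. In HO against WT lungs 0 of the 64 had an adjusted p under 0.05 in limma with Benjamini-Hochberg adjustment, as did 0% of all probe sets, and the lowest member value was 0.992. Without adjustment 1 of the 64 (1.56%) was under 0.05 (Derl2), against 4.49% of all probe sets. Samples of the same replicate number share a numbered source set across genotypes. With that number as a block, 2 of the 64 (Derl2 and Ssr4) were under 0.05 without adjustment in HO against WT, against 5.95% of all probe sets. In HE against WT lungs the adjusted count was again 0, against 0% of all probe sets. There 2 of the 64 (3.12%, Hyou1 and Edem1) passed without adjustment, against 3.11% of all probe sets. HO against HE lungs gave 0 after adjustment, with 0% of all probe sets called, and 1 of the 64 (1.56%, Ssr4) without it, against 2.56% of all probe sets. An F test over the 3 genotypes called 0 members after adjustment (0% of all probe sets) and 2 of 64 without it, against 3.09% of all probe sets. In bulk tissue, a lower signal from fewer cells of a type and one from less RNA per cell cannot be told apart.

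The differences were small in both directions. With 1 probe set per gene, the one of highest mean signal (its leading probe set), 16 of the 32 genes were higher and 16 lower in HO than in WT lungs, with a median log2 difference of 0.01. Over all 8184 genes, 4094 were higher and 4090 lower, with a median of 0.00. HE minus WT gave 11 higher and 21 lower members with a median of -0.02, against 3771 higher and 4413 lower genes and a median of -0.01 overall. The sign of the member medians depended on the scaling, with values of -0.02 (HO minus WT) and -0.04 (HE minus WT) after quantile normalization and 0.06 and 0.01 after centring each array on its median. It also turned for HO minus WT without HO replicate 2 (-0.03) or WT replicate 1 (-0.05), and for HE minus WT without WT replicate 3 (0.03). Log2 differences ran from -0.23 to 0.36 in HO minus WT and from -0.35 to 0.60 in HE minus WT. The median standard error of a member's difference was 0.16, and the median 95% interval reached 0.36 on either side, a change of 28.2% in signal. The groups of arrays did not separate for any of the 64 probe sets in HO against WT, where 8.88% of all probe sets separated. They separated for 2 in HE against WT (7.70% of all probe sets) and for 5 of the 64 (7.81%) in HO against HE (6.66% of all probe sets).

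**Figure D2:**
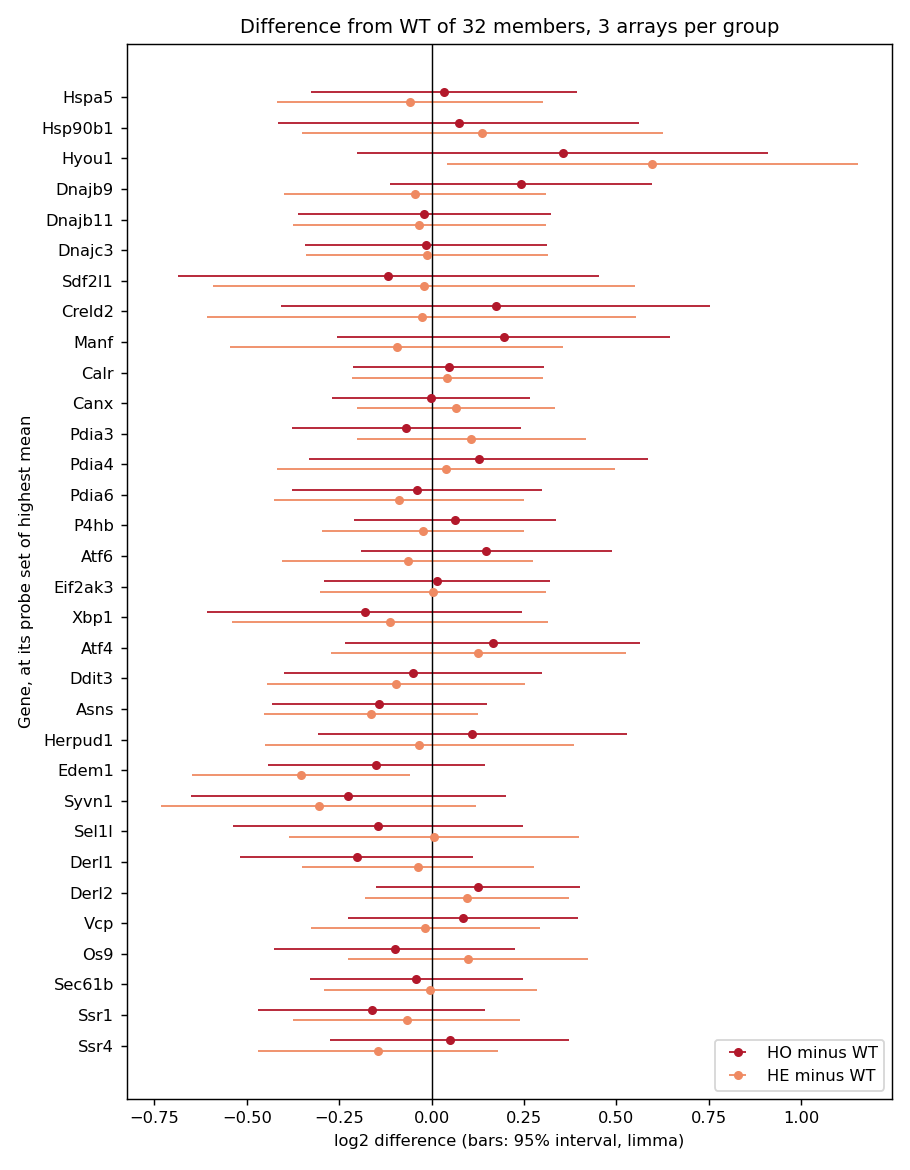
Log2 difference from WT of the 32 measured genes at the probe set of highest mean signal, HO minus WT above HE minus WT for each gene, with 95% intervals from the limma fit of 3 arrays per group. The points lie between -0.35 and 0.60, and the intervals of Hyou1 and Edem1 in HE minus WT are those that leave 0 out.

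Among the chaperones, Hspa5, the main Hsp70 of the ER and the regulator of all 3 stress sensors, lies at chr2:34772090-34776529 (GRCm38.p6) and had a scaled intensity of 24844, 31864 and 25688 in the HO lungs, 25949, 24553 and 26414 in the HE lungs, and 21119, 29867 and 30088 in the WT lungs. The HO and HE values lay inside the WT range except for the highest HO array, and the WT lungs alone held both a low array and 2 high ones. Its log2 difference was 0.03 ± 0.16 (SE) in HO minus WT, with a 95% interval of -0.33 to 0.39, and -0.06 ± 0.16 in HE minus WT. The sign of the HO minus WT value turned under quantile normalization (-0.06) and without HO replicate 2 (-0.08) or WT replicate 1 (-0.14), and that of HE minus WT turned without WT replicate 2 (0.02) or WT replicate 3 (0.03). A second Hspa5 probe set, 1427464_s_at, gave 0.01 in HO minus WT and -0.31 in HE minus WT. Hsp90b1 (GRP94), the Hsp90 of the ER, had differences of 0.07 and 0.14 at its leading probe set, and -0.13 and -0.01 at the other, for HO minus WT and HE minus WT in each case.

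Hyou1, an Hsp70-related protein that acts as nucleotide exchange factor for Hspa5, had the lowest p of a higher member in HE against WT lungs. Its probe set 1423291_s_at read 3545, 6857 and 3335 in the HO lungs, 6260.5, 5018 and 4265 in the HE lungs, and 2996, 3781 and 3419.6 in the WT lungs. All HE arrays lay above all WT arrays, and HO replicate 2 was the highest array of all while the other two HO arrays were within the WT range. The log2 difference was 0.60 ± 0.25 in HE minus WT (limma, Benjamini-Hochberg adjusted p = 0.9997) and 0.36 ± 0.25 in HO minus WT. The other measured Hyou1 probe set, 1423290_at, read 851, 816 and 664 in HO, 438, 693 and 844 in HE and 822, 612 and 1209.9 in WT. It went the other way, with -0.42 ± 0.27 in HE minus WT and -0.13 ± 0.27 in HO minus WT, so the 2 probe sets had opposite signs in both comparisons.

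The co-chaperones Dnajb9, Dnajb11 and Dnajc3 are J proteins that stimulate Hspa5, and Sdf2l1 is a partner of Dnajb11. Dnajb9 (ERdj4), known as a target of spliced Xbp1, gave 8347, 11958 and 8354 in the HO lungs, 8088, 7524 and 7543 in the HE lungs, and 7012, 8197 and 8754 in the WT lungs. Every HO array was above every HE array, but 2 HO arrays were within the WT range. The log2 difference was 0.29 ± 0.16 in HO minus HE (limma, Benjamini-Hochberg adjusted p = 0.9998) and 0.24 ± 0.16 in HO minus WT. With HO replicate 2 counted as HE, as the symbol in its description would have it, the HO minus HE value was -0.04, and without that array it was 0.11. Sdf2l1 varied most within HO, where the arrays read 844, 1631 and 714, and its differences were -0.12 ± 0.26 in HO minus WT and -0.02 ± 0.26 in HE minus WT. The differences from WT of Dnajb11 and of the leading Dnajc3 probe set lay between -0.03 and -0.01 in both groups.

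Creld2 and Manf are small soluble ER proteins that are secreted when the ER is stressed. Creld2 gave 1967, 2320.3 and 1632 in the HO lungs, 1726, 1649 and 1729 in the HE lungs, and 1033, 2332 and 2157 in the WT lungs. The 3 HE arrays were nearly alike, and the WT group held both the lowest and the highest array. Manf gave 4664, 6388 and 5216 in the HO lungs, 3969, 4228 and 5065 in the HE lungs, and 3398, 5299.6 and 5749 in the WT lungs, again with WT replicate 1 lowest. Their log2 differences in HO minus WT were 0.17 ± 0.26 for Creld2 and 0.20 ± 0.20 for Manf, and in HE minus WT -0.03 and -0.09, each with a 95% interval that included 0.

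The lectins Calr (calreticulin) and Canx (calnexin) bind the sugar chains of new glycoproteins, CFTR among them, and hold them until they fold. At their leading probe sets they differed from WT by 0.05 and 0.00 in HO and by 0.04 and 0.07 in HE lungs on the log2 scale, in the order Calr, Canx. Other probe sets of Calr, 1433806_x_at and 1456170_x_at, read lower in all HO than in all HE arrays, with log2 differences of -0.19 ± 0.12 and -0.19 ± 0.12 in HO minus HE. The highest HO array and the lowest HE array were close at both, at 18525 against 18528 and at 17958 against 17996. The leading Calr probe set gave 0.00 ± 0.12 for the same comparison. In the array's naming, the suffixes _s_at and _x_at mark probes that can also match other transcripts. The disulfide isomerases Pdia3, Pdia4, Pdia6 and P4hb differed by -0.07 to 0.13 in HO minus WT and by -0.09 to 0.11 in HE minus WT at their leading probe sets. Pdia6 gave 3556, 4457 and 4114 in the HO lungs, 3846, 3962 and 3867 in the HE lungs, and 3343, 4481 and 4726 in the WT lungs at that probe set, where WT replicate 1 was lowest and WT replicate 3 highest. Its other probe set, 1430983_at, lay just above the filter and read 518, 425 and 422 in HO, 612, 555 and 486 in HE and 562, 470.4 and 576 in WT, with a log2 difference of -0.28 ± 0.15 in HO minus HE. The 2 HO arrays that were lowest at it were among the higher ones at the leading probe set.

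Of the sensors, Ern1 was below the filter, and the measured ones showed no separation from WT. Atf6, which is cleaved in the Golgi to free a transcription factor, gave 2065, 2233 and 2060.4 in the HO lungs, 1744, 1901 and 1841 in the HE lungs, and 1654, 1731 and 2438 in the WT lungs. All HO arrays exceeded all HE arrays, while WT replicate 3 was the highest of the 9. The difference was 0.21 ± 0.15 in HO minus HE and 0.15 ± 0.15 in HO minus WT. Eif2ak3, the kinase that phosphorylates eIF2alpha, differed from WT by 0.01 ± 0.14 in HO and 0.00 ± 0.14 in HE lungs at its 1 measured probe set.

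Xbp1, the transcription factor whose mRNA Ern1 splices, had 4 measured probe sets, 2 with a positive and 2 with a negative difference in HO minus WT. The leading one, 1420886_a_at, read 19339, 15652 and 24342 in the HO lungs, 18775, 20100.0 and 22508 in the HE lungs, and 17225, 23991 and 25974 in the WT lungs, with a difference of -0.18 ± 0.19 in HO minus WT and -0.11 ± 0.19 in HE minus WT. HO replicate 2 was the lowest array there, and without it the HO minus WT value was -0.02, while without WT replicate 1 it was -0.36. The HE minus WT value was 0.01 without WT replicate 3 and -0.29 without WT replicate 1. At 1420011_s_at HO replicate 2 was the highest array, with values of 3771, 6669.5 and 5923 in the HO lungs, 3542, 4419.5 and 4524 in the HE lungs, and 3558, 5695 and 4853 in the WT lungs, and a difference of 0.20 ± 0.23 in HO minus WT. A further one, 1420012_at, read 963, 855 and 761 in HO, 597, 894 and 1213 in HE and 1143, 1523 and 883 in WT and differed by -0.43 ± 0.26 (limma, Benjamini-Hochberg adjusted p = 0.992) in HO minus WT, a value that was -0.23 without WT replicate 2 and -0.62 without WT replicate 3. The last, 1437223_s_at, read 16382, 19738 and 17877 in HO, 14981, 17569 and 18075 in HE and 13918, 20478 and 18824 in WT and differed by 0.04 ± 0.16. Which part of the Xbp1 RNA each probe set reads was not examined, and the labels do not say that any of them separates the spliced form.

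On the Eif2ak3 side of the response, Atf4, the transcription factor translated when eIF2alpha is phosphorylated, gave 9832, 6466 and 6082 in the HO lungs, 6605, 6801 and 7923 in the HE lungs, and 7129, 5986 and 6415 in the WT lungs at its leading probe set. HO replicate 1 stood above the rest, and without it the log2 difference in HO minus WT was -0.05, against 0.17 ± 0.18 with it. Its second measured probe set read 1942, 1495 and 1299 in HO, 1863, 1952 and 1751 in HE and 1868, 1728 and 1446 in WT, again with HO replicate 1 at the top of HO, and gave -0.10 ± 0.16 in HO minus WT. Ddit3 (CHOP), the transcription factor linked to death of stressed cells, read 1498, 1729 and 1304 in the HO lungs, 1359, 1298 and 1744 in the HE lungs, and 1725, 1524 and 1428 in the WT lungs, and the groups overlapped fully, with -0.05 ± 0.16 in HO minus WT and -0.10 ± 0.16 in HE minus WT. With single arrays left out these ran from -0.15 (without HO replicate 2) to 0.05 (without HO replicate 3) and from -0.23 (without HE replicate 3) to -0.01 (without HE replicate 2). Asns, the asparagine synthetase gene and a known Atf4 target, differed from WT by -0.14 ± 0.13 in HO and -0.16 ± 0.13 in HE lungs. Its second probe set and those of Trib3 mark the edge of the filter, at a mean log2 signal of 8.92 for Asns just inside and 8.77 and 8.69 for Trib3 just outside the limit of 8.90.

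The largest role was ER-associated degradation, with 8 genes measured. Herpud1, Syvn1 (HRD1), Sel1l, Derl1, Derl2 and Os9 form or join the ubiquitin ligase complex that pulls misfolded proteins out of the ER, Edem1 directs trimmed glycoproteins to it, and Vcp (p97) extracts them. Of the 8, 3 were higher and 5 lower than WT in each of HO and HE, with medians of -0.12 and -0.03. Edem1 at 1451218_at read 1841, 2152 and 1953 in the HO lungs, 1537, 1684 and 1959 in the HE lungs, and 2189, 2067 and 2335 in the WT lungs. All 3 HE arrays were below all WT arrays and the HO arrays straddled the gap, and the difference in HE minus WT was -0.35 ± 0.13 (limma, Benjamini-Hochberg adjusted p = 0.9997). Its other probe set, 1424065_at, read 1118, 1011 and 1659.8 in HO, 1176, 1233 and 1039 in HE and 1141, 933 and 1458 in WT, with overlapping groups and a difference of -0.01 ± 0.21 in HE minus WT.

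Derl2, a derlin of the retrotranslocation channel, had the lowest p of any member in HO against WT lungs. The probe set 1435101_at read 1055, 1030.1 and 1428 in the HO lungs, 1429.5, 1259 and 1474 in the HE lungs, and 1651, 1419 and 1688 in the WT lungs. HO replicates 1 and 2 were the lowest of the 9 arrays, and HO replicate 3 just exceeded the lowest WT array. The difference was -0.45 ± 0.15 in HO minus WT (limma, Benjamini-Hochberg adjusted p = 0.992). The leading probe set, 1448438_at, read 2365, 2554 and 2220.0 in HO, 2261, 2396 and 2326 in HE and 1936, 2341 and 2281 in WT and gave 0.12 ± 0.13. Across the 9 arrays the pair correlated at r = -0.72, the lowest of all pairs compared. Syvn1 had differences of -0.23 ± 0.19 in HO minus WT and -0.31 ± 0.19 in HE minus WT, with HO replicate 1 and HE replicates 1 and 2 among the lowest arrays.

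Of the translocation genes, Sec61b is a subunit of the ER channel, and Ssr1 and Ssr4 encode subunits of the translocon-associated protein complex that assists it. The widest difference of any member probe set was at Ssr4. Its probe set 1435709_at read 1136, 955 and 1104 in the HO lungs, 241, 276 and 540.5 in the HE lungs, and 787, 291 and 1036 in the WT lungs. All HO arrays were above all HE arrays, and the WT arrays spanned most of the range between them. The log2 difference was 1.69 ± 0.41 in HO minus HE (limma, Benjamini-Hochberg adjusted p = 0.9998), 0.78 ± 0.41 in HO minus WT and -0.91 ± 0.41 in HE minus WT. Both differences from WT turned on single WT arrays, at 0.23 and -1.45 without WT replicate 2 and 1.15 and -0.54 without WT replicate 3, for HO minus WT and HE minus WT in each case. The leading Ssr4 probe set, 1448524_s_at, read 4351, 5416 and 5029 in HO, 4940.4, 3866 and 4140.3 in HE and 5041, 5076 and 4185 in WT, and the groups overlapped. It and the remaining one, 1427096_s_at, gave 0.19 ± 0.15 and 0.21 ± 0.16 in HO minus HE. Sec61b and the leading Ssr1 probe set differed from WT by -0.16 to 0.00 over both comparisons.

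**Figure D3:**
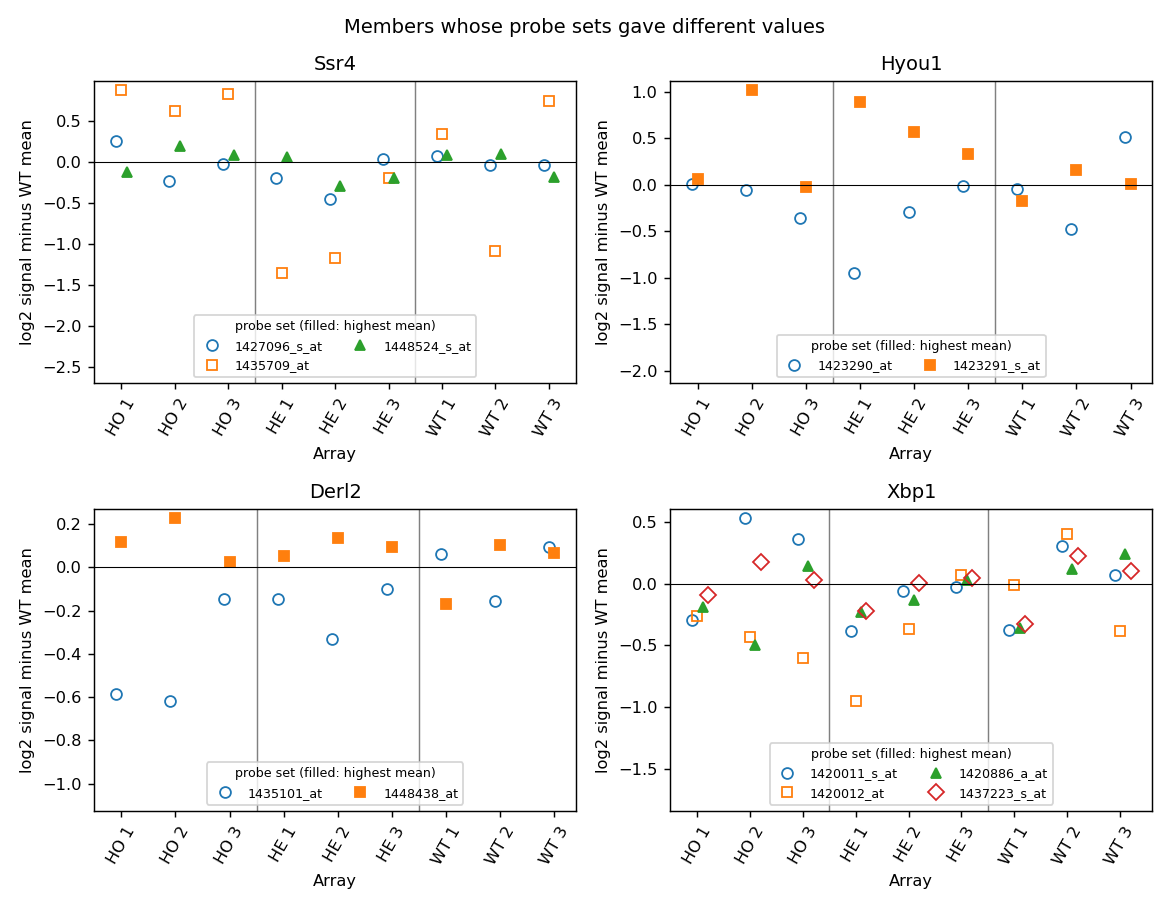
Log2 signal minus the mean of the WT arrays, on each of the 9 arrays, for every measured probe set of Ssr4, Hyou1, Derl2 and Xbp1; filled symbols mark the probe set of highest mean signal. The Ssr4 probe set 1435709_at parts HO from HE arrays while the other Ssr4 probe sets lie closer to 0, and the symbols of Derl2 and of Hyou1 part from each other.

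Agreement between probe sets of 1 gene set a limit on these values. In the 19 members with several measured probe sets, 51 pairs could be compared over the 9 arrays. The median Pearson r was 0.34, against 0.21 for 6419 such pairs over all genes tested, and 39 of the 51 (76.5%) were above 0, against 68.2% of all such pairs. In an exact permutation test with Benjamini-Hochberg adjustment over the pairs compared, 3 pairs were under 0.05, 1 each in Sel1l (r = 0.93), Xbp1 (r = 0.86) and Derl1 (r = 0.81). In HO minus WT, the probe sets of 9 pairs differed from each other by over 0.3 on the log2 scale, and the median gap was 0.19. A gap holds the error of both probe sets, so the standard error of 1 difference is no measure for it. Gaps over all genes were not computed. All probe sets had the same sign in 7 of the 19 genes for HO minus WT, in 9 for HE minus WT and in 8 for HO minus HE.

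More of the members' variation followed the replicate number than the genotype. The labels place replicates 1, 2 and 3 of every genotype in 3 numbered source sets, without saying what a set is. In an F test over the replicate numbers 0 of the 64 member probe sets passed after adjustment (lowest adjusted p = 0.286 in limma with Benjamini-Hochberg adjustment), against 0.0147% of all probe sets. Without adjustment 13 of the 64 (20.3%) were under 0.05, against 12.0% of all probe sets. They belonged to 11 genes, Canx, Derl1, Dnajc3, Herpud1, Hsp90b1, Manf, Os9, Sel1l, Ssr4, Syvn1 and Xbp1. The median share of a member probe set's variation was 37.2% for the replicate number and 13.0% for genotype, against 29.2% and 18.2% over all probe sets. The lowest p in that test was at the Canx probe set 1422845_at, which read 2295, 2398 and 3379.6 in the HO lungs, 2203, 2767 and 3602 in the HE lungs, and 2107, 3219 and 3653 in the WT lungs (limma, Benjamini-Hochberg adjusted p = 0.286). Replicate 1 was lowest in every genotype there and replicate 3 highest. At the leading Canx probe set, which read 9398, 10769.6 and 8929.8 in HO, 10142, 9973 and 10299.9 in HE and 9163, 10217 and 9686 in WT, the replicates showed no such order. Derl1 at 1423082_at read 1666, 1866 and 2418 in HO, 1676, 2189.7 and 2299.5 in HE and 1692, 2299 and 2442 in WT, with replicate 3 highest in each genotype, and Xbp1 at 1420011_s_at, given above, had replicate 1 lowest in each genotype.

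Taken member by member, a single array often stood at the edge. WT replicate 1 was the lowest of the 9 arrays for 11 of the 32 genes, HO replicate 2 the highest for 9 and WT replicate 3 the highest for 7. The same count over all genes was not made, so it is not known whether this is particular to the members. The median member differed from the WT mean by -0.04, 0.07 and -0.01 in the HO arrays, by -0.02, -0.08 and 0.02 in the HE arrays, and by -0.11, 0.05 and 0.07 in the WT arrays, on the log2 scale. The WT arrays covered the widest range of the 3 groups.

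**Figure D4:**
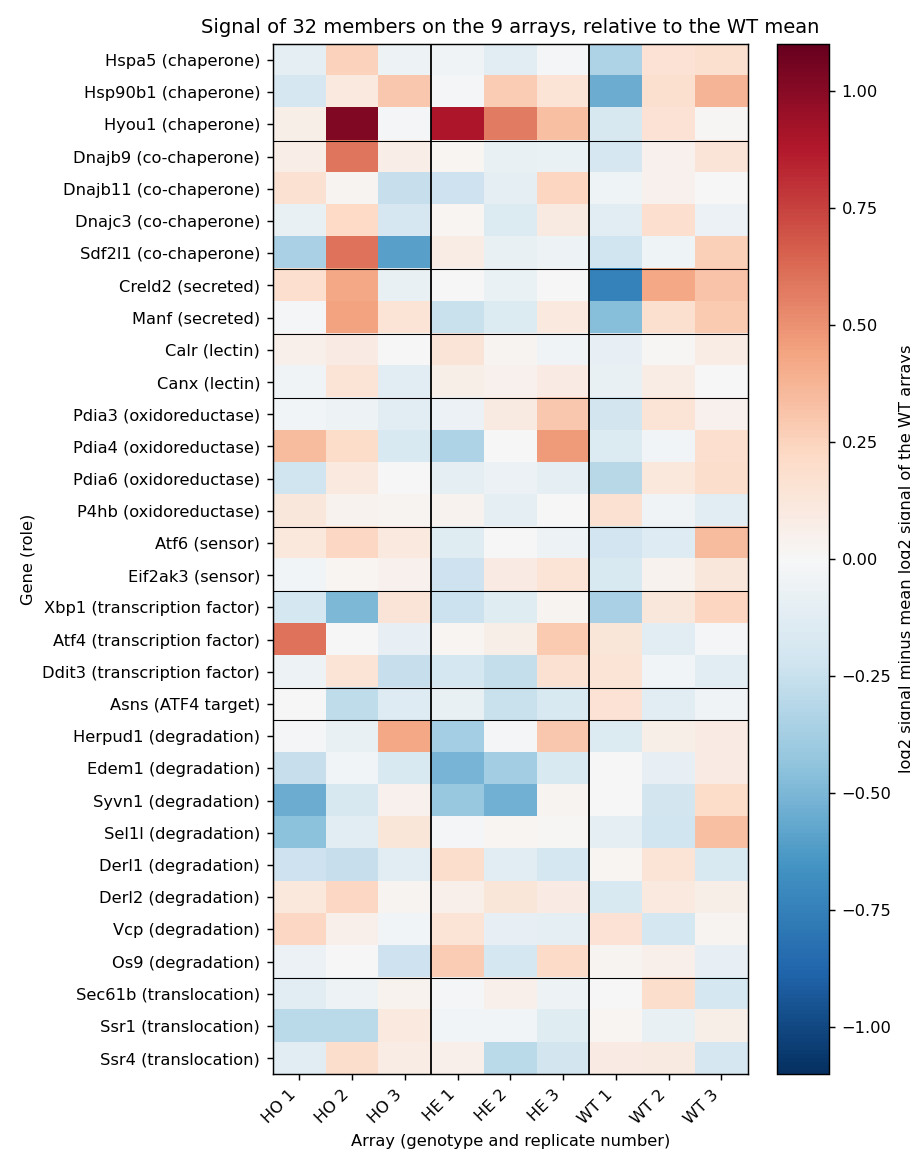
Log2 signal minus the mean of the WT arrays for the 32 measured members, 1 row per gene at its probe set of highest mean signal and grouped by role, with the HO, HE and WT arrays from left to right. In the rows of Hspa5, Hsp90b1, Creld2 and Manf the column of WT replicate 1 is blue and those of HO replicate 2 and WT replicates 2 and 3 are red, so columns of 1 genotype differ among themselves.

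The members nearest to Hspa5 in this array-to-array pattern were compared over the 9 arrays, with 31 other members tried. Creld2, Pdia6 and Manf were singled out after their values were seen. Likeness was taken as Pearson's r of log2 signal with Hspa5, a description of 9 arrays that share their scaling and replicate sets. Creld2 had r = 0.92 (Spearman's rho = 0.82), and rank 4 among 13575 other probe sets. Pdia6 had r = 0.91 (rho = 0.77) and rank 6, and Manf had r = 0.90 (rho = 0.87) and rank 7. Genes outside the group ranked as high, with Dnpep at rank 2 (r = 0.93), Upp1 at rank 3 (0.93) and Hspa8 at rank 5 (0.91). A Vcp probe set that was not the leading one, 1457588_at, had rank 8 (r = 0.90), while the leading Vcp probe set had r = -0.39. Leaving out the 2 arrays farthest from the median of Hspa5 gave r of 0.81, 0.88 and 0.71, in the order Creld2, Pdia6, Manf.

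The likeness was also computed within replicate numbers and within genotypes. With the replicate-number means removed r was 0.89 for Creld2, 0.87 for Pdia6 and 0.87 for Manf, and with the genotype means removed it was 0.92, 0.92 and 0.93. The other Pdia6 probe set did not share the pattern, since the pair of Pdia6 probe sets correlated at r = -0.33 over the arrays. Over single arrays left out, the lowest values were 0.86, 0.85 and 0.83, each without WT replicate 1. After quantile normalization Pdia6 kept r = 0.92, while Manf had 0.83 and Creld2 0.71. The second Hspa5 probe set gave 0.64 with Creld2, 0.72 with Pdia6 and 0.81 with Manf. Pdia6 and Creld2 are among the members whose promoters, printed above, hold the ERSE, and the table holds no Manf promoter.

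**Figure D5:**
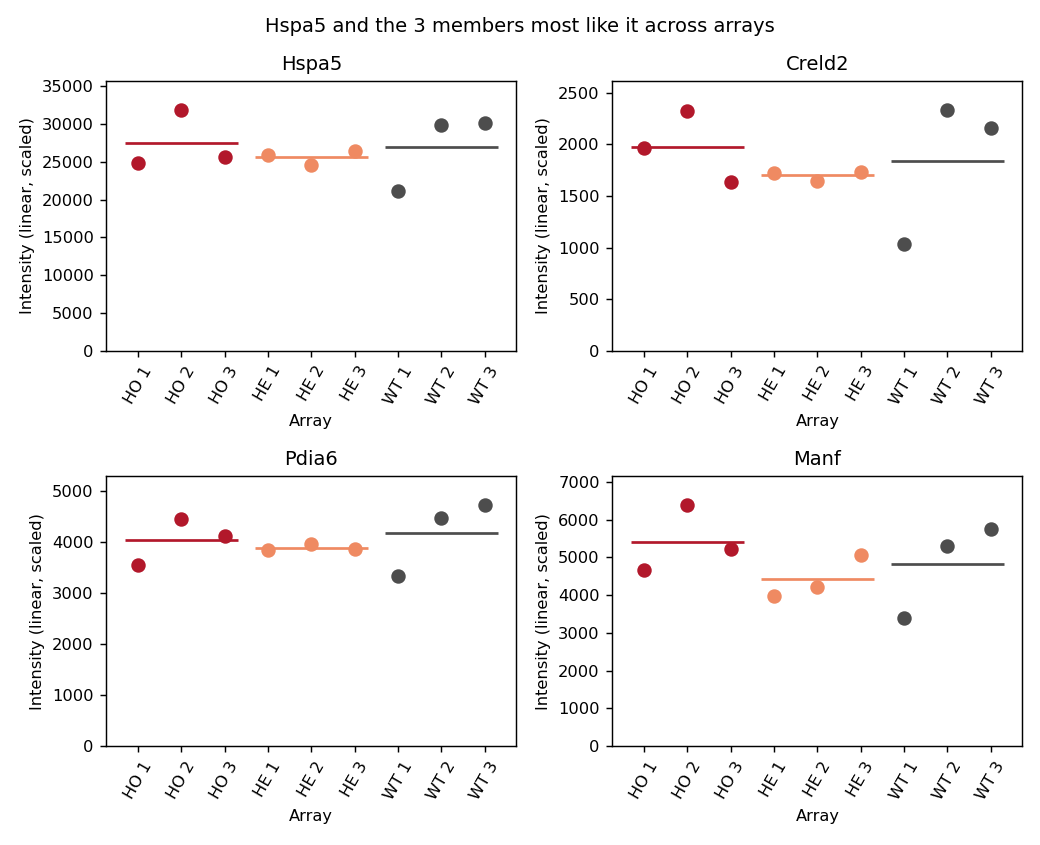
Scaled intensity of Hspa5, Creld2, Pdia6 and Manf on each array, with a line at each group's mean and the axes starting at 0. In all 4 genes WT replicate 1 is the lowest array, HO replicate 2 is the highest HO array, and the group means lie within the spread of single arrays.

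Of the 31 members, each at its leading probe set, 24 had r above 0 with Hspa5. Of them 11 (35.5%) had r above 0.5, against 9.54% of all other probe sets, and the median was 0.30 against 0.01. That background held every other probe set tested, leading or not, so members and background were not picked alike. Dnajb9 (0.77), Derl2 (0.74), Dnajc3 (0.69), Sdf2l1 (0.67), Hsp90b1 (0.67), Canx (0.64), Atf6 (0.58) and Calr (0.57) completed the 11. Several of these rested on HO replicate 2 and WT replicate 1, the 2 arrays farthest from the median of Hspa5. Without them 6 of the 11 stayed above 0.5, and r was -0.20 for Derl2, 0.43 for Hsp90b1, 0.27 for Canx, 0.22 for Atf6 and 0.05 for Calr. Over the 7 arrays left, 9 of the 31 members (29.0%) were above 0.5, against 12.8% of all other probe sets, with medians of 0.28 and 0.03. At the other end were Asns (-0.60), P4hb (-0.54) and Atf4 (-0.40). Among the 7 measured members other than Hspa5 with an ERSE match, 6 were above 0.5 with a median of 0.67, and Syvn1 had 0.19. The 20 whose promoter had none included Dnajb11 and Herpud1, which hold an ERSE-II, and Vcp, which holds the TGACGTG core. Of these 20, 3 were above 0.5, with a median of 0.18. This contrast was smaller without the same 2 arrays. There 4 of the 7 with an ERSE and 4 of the 20 without were above 0.5, with medians of 0.55 and 0.26. Syvn1 then had 0.63. The contrast also rests on 1 probe set per gene. Over the 9 arrays the leading probe set correlated with the gene's others at -0.16 and -0.26 in Calr and at 0.02 and -0.35 in Canx. In Pdia6 this r was -0.33, in Hsp90b1 0.69 and in Dnajc3 -0.21 to 0.62. Of 29 genes outside the group with an ERSE match, 6 were measured, with a median of 0.18, and Pan2 (0.64) and Ero1b (0.63), an oxidase that recharges disulfide isomerases, were above 0.5. The median log2 differences of the members with the ERSE and of those without it were 0.02 and -0.03 in HO minus WT, and -0.02 and -0.02 in HE minus WT.

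Other measures of the arrays were set beside Hspa5 in the same way. Alveolar type II cells are those in which the Sftpc promoter is most active. Not every listed marker of these cells was found on the array, and the 7 that were found were all measured. Their summed intensity was 220764 to 248364 in HO, 212722 to 236270 in HE and 198906 to 247884 in WT lungs. Plasma and B cell markers, from cells with abundant ER, were measured for 7 of the 9 found on the array. Their sums were 14442 to 17792 in HO, 14655 to 20429 in HE and 14917 to 17605 in WT. Neither list parted the groups. Their median signal correlated with Hspa5 at r = -0.13 (exact permutation p = 0.732) and r = 0.34 (p = 0.369). Among 15 such measures, the largest correlation in either direction was with T cell markers (r = 0.64, exact permutation p = 0.0617, 0.892 after Benjamini-Hochberg adjustment over the 15), and it was -0.33 without the same 2 arrays. The 3′ to 5′ ratio of the Actb control probes, a sign of RNA integrity, ran from 1.22 to 1.39 in HO, 1.07 to 1.26 in HE and 1.18 to 1.30 in WT arrays and had r = 0.19 with Hspa5 (exact permutation p = 0.635).

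Genes of the wider pathway were counted in the same fit. Of 172 measured genes in 8 further lists (other ER chaperones, oxidoreductases, glycosylation and glucose trimming, translocation, degradation, stress regulators, Atf4 and Ddit3 targets, and ER to Golgi transport), 0 passed after adjustment in HO or HE against WT. Without adjustment 3 (1.74%) were under 0.05 in HO against WT, all higher, where 4.49% of all probe sets were. In HE against WT 4 (2.33%) were, 3 higher and 1 lower, where 3.11% of all probe sets were. Of all 8184 genes, each at its leading probe set, 140 were higher and 207 lower at that level in HO against WT. For HE against WT these counts were 89 and 172. The 3 pathway genes in HO minus WT included the J protein Dnajb12 (0.39 ± 0.14). The others were the ubiquitin-conjugating enzymes of ER degradation Ube2j1 (0.37 ± 0.13) and Ube2g2 (0.36 ± 0.14). Ube2j1 read 2946, 2672 and 2558 in the HO lungs, 2544, 2004 and 2402 in the HE lungs, and 2049.9, 1997 and 2285 in the WT lungs, and its HO arrays all exceeded the WT ones. Dnajb12, which has a known part in CFTR quality control, read 919.8, 916 and 818 in HO, 845, 942 and 752 in HE and 712, 584 and 730.3 in WT. All arrays of both transgenic groups were thus above all WT arrays. Groups separated in either direction for 8.88% of all probe sets in HO against WT and for 7.70% in HE against WT. The share that separated in both was not counted, and the genes named here were picked by low p.

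In HE minus WT the same Dnajb12 probe set (0.33 ± 0.14), the Vcp cofactor Ufd1 (0.26 ± 0.12) and the amino acid transporter Slc38a2 (0.54 ± 0.21) were higher and the tRNA synthetase gene Cars (-0.26 ± 0.11) was lower. HO and HE were set against the same WT arrays, so these values are not independent. Each of these genes had a limma adjusted p of 0.992 in HO minus WT and 0.9997 in HE minus WT with Benjamini-Hochberg adjustment. Of the other named genes, Ufd1 read 2485, 2509.8 and 2226 in HO, 2377, 2514 and 2473 in HE and 2004, 1978 and 2154 in WT. All arrays of both transgenic groups were above all WT arrays, again without a share of all probe sets that did so. Over the 172 genes the median log2 difference was 0.01 in HO minus WT and 0.00 in HE minus WT.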

How the data were processed

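The deposited values are linear intensities, 1 per probe set and array, from Affymetrix mouse 430A arrays hybridised with biotin-labelled total RNA, per the labels. No label or header names the summarising software. The trimmed mean was 1500 on every array, so the authors scaled the arrays to a common level before deposit, and median intensities were 697 to 742. No detection calls were given, so signal over background was judged from brightness alone. No intensity was averaged across probe sets.

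Values below the 5th percentile (25.5) were set to it and converted to log2. The 13576 of 22690 probe sets whose mean log2 reached the 40th percentile (8.90) were tested. Each contrast between HO, HE and WT (3 arrays each) was fitted with limma 3.58.1 in R 4.3.3, using all 9 arrays for 1 estimate of the spread, with Benjamini-Hochberg adjustment over all 13576 and a threshold of 0.05. The precision is limited by the 3 arrays per group. Correlations were computed in Python 3.11.15 with exact permutation over the 362880 orders of the arrays. Both procedures were tested on simulated data. Gene names came from the platform annotation, under which 20380 probe sets had 1 symbol, 691 had several and 1555 had none.

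The deviations of same-numbered arrays, in replicate order, correlated at 0.19, 0.14 and 0.28 in HO against WT. The correlations were 0.30, 0.05 and 0.04 in HE against WT and 0.16, 0.15 and 0.03 in HO against HE. All were positive, and their ranges overlapped between the comparisons. No values for arrays of different numbers stand beside them, so they do not decide in which comparisons the replicate numbers pair the samples. The fit with the replicate number as a block was an alternative, beside other normalizations, filters, floors, weights and arrays left out.

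The members and lists were chosen with earlier results of these data known. Values on all arrays are given for Hspa5, Xbp1, Atf4 and Ddit3, for the 3 member probe sets of lowest p in each comparison and for further probe sets of those genes that disagreed, and other members were added where a result turned on them. From each further pathway list up to 3 genes of lowest p were eligible to be named.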

Additional observations from a re-analysis of the deposited data

How the results depend on the processing

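No member probe set passed the adjusted threshold in any contrast or F test under the main settings or the 21 alternatives, each fitted with limma and adjusted by Benjamini-Hochberg over all probe sets tested. With the replicate number as a block, 2 of 64 member probe sets were under an unadjusted 0.05 in HO minus WT (Derl2 and Ssr4, against 1 without it). There were 3 of 64 in HE minus WT (Edem1, Hyou1 and Ssr4) and 2 of 64 in HO minus HE (Ssr4 and Xbp1). The share over all probe sets was not kept for these last counts, so whether they exceed it is not known. The block changed no adjusted call of a member, and the adjusted count over all probe sets was 0 in each contrast with it. Over all probe sets the adjusted counts were 0 for the genotype contrasts, and with no filter they became 2 each for HE minus WT, for HO minus HE and for the genotype F test. With arrays left out they ranged from 0 to 1 in HO minus WT, HE minus WT, both transgenic groups minus WT and the genotype F test, with the 1 found without WT replicate 1. The F test over replicate numbers called 2 probe sets, against 1 after quantile normalization, median centring, the 60th percentile filter or 1 probe set per gene, 5 with trended and robust variances, 0 with no filter or HO replicate 2 counted as HE, and 0 to 1 with arrays left out. Signs of small differences turned. Hspa5 in HO minus WT became -0.061 after quantile normalization and -0.078 with HO replicate 2 counted as HE, which gave 0.021 in HE minus WT. With HO replicate 2 counted as HE, HO minus HE became -0.044 for Dnajb9, -0.099 for Hspa5, 0.18 for Xbp1 and -0.12 for Ddit3. Ddit3 in HO minus WT became 0.0027 after median centring. With single arrays left out, Hspa5 ranged from -0.14 to 0.12 in HO minus WT, -0.23 to 0.029 in HE minus WT and -0.021 to 0.16 in HO minus HE. Atf4 ranged from -0.050 to 0.30 in HO minus WT and -0.18 to 0.17 in HO minus HE. Ddit3 ranged from -0.15 to 0.050 in HO minus WT and -0.058 to 0.18 in HO minus HE, and Xbp1 from -0.29 to 0.0053 in HE minus WT and -0.23 to 0.089 in HO minus HE. For the correlation with Hspa5, quantile normalization, chosen after seeing the data, gave 0.71 for Creld2, below its range of 0.86 to 0.97 with single arrays left out. The cause was not tested. The member medians, all close to 0, changed sign too, and with single arrays left out they ranged from -0.052 to 0.053 in HO minus WT, -0.064 to 0.027 in HE minus WT and -0.014 to 0.056 in HO minus HE. With 3 arrays per group, differences under about 0.36 on the log2 scale lie within the median interval, and dim genes such as Ern1 and Trib3 were not measured.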
